A study of Mus musculus with 20 samples.

Results

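The genes described here are 42 mouse genes of mitosis and chromosome segregation, given as a list by symbol: mitotic kinases and cyclins, the spindle checkpoint, centromere proteins, kinesins, cytokinesis factors, and proteins of chromosome structure. A probe set carrying only the gene's symbol was found for 38 of the 42, among 8251 genes with such a probe set on the array. Ccnb1, Hmmr, Cdc25b and Bub1b were not analysed here. The 38 genes were read by 51 probe sets, and each gene is represented by the probe set with the highest mean signal over all arrays.

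The whole prostate of each of 20 mice (C57/B6, 10 to 12 weeks old) was measured on its own Affymetrix mouse array, with 5 mice in each of 4 groups. The sham group was operated on without castration, and the labels give no time for it. The other groups were killed 3 days after castration, 14 days after castration, or 3 days after a 15 mg testosterone pellet was implanted in mice castrated 14 days before. The design asks how the gland changes as it regresses without androgen and as it regrows. Castration removes the testes, the main source of androgen, and the pellet supplies testosterone alone. Because whole glands were used, a lower signal from fewer cells of a type and from less RNA per cell cannot be told apart.

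A cell that enters mitosis activates Cdk1 with cyclins, condenses its chromosomes, attaches them through centromeres to a bipolar spindle, and separates them once the spindle checkpoint releases the anaphase-promoting complex. Most of the genes involved are transcribed in the G2 and M phases of dividing cells and kept low in resting cells, so their RNA is widely used as a measure of proliferation. In the adult prostate the epithelium divides slowly, the gland shrinks after castration, and androgen replacement drives a round of cell division during regrowth.

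Many genes of this kind carry a CCAAT box and a cell cycle homology region (CHR) shortly before the transcription start, and the promoters below are printed because these genes moved together after testosterone. RefSeq promoter windows (GRCm38.p6, from 250 bases before to 50 bases after the start, 300 in all) were found for 34 of the 42 genes, with 37 windows. Both strands were searched for the CCAAT box. The CHR was searched on both strands as either of a pair of motifs, TTTGAA being the more usual and TTCGAA the other. A match of each kind was counted also where the matches share a base. A CCAAT box was in 32 of the 37 windows (86.5%), against 37.4% of all 32851 windows in the table. A CHR was in 29 (78.4%), against 19.2% of all windows. Both were in 28 (75.7%), against 7.52% of all windows. These are matches of letters, given as a description without a test, and say nothing of what binds there in the prostate.

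The 200 bases before the start are shown for 5 of the 12 genes with the largest rise after testosterone, for Kif11, a kinesin with 1 match of each kind, and for Mad2l1, which had neither match. The 5 were not taken strictly by rank, and all 5 had both kinds of match. Nusap1 and Birc5, which had neither match, rose more than Cdc20 and are not printed. All stretches read 5′ to 3′ on the gene's strand, and capitals mark the letters of a CCAAT box or a CHR on either strand. The stretches lie at chr7:135716380-135716579 (Mki67, minus strand), chr11:99024190-99024389 (Top2a, minus), chr10:69352913-69353112 (Cdk1, minus), chr4:118437344-118437543 (Cdc20, minus), chr14:46760341-46760540 (Cdkn3, plus), chr19:37376182-37376381 (Kif11, plus) and chr6:66535021-66535220 (Mad2l1, plus).
Mki67: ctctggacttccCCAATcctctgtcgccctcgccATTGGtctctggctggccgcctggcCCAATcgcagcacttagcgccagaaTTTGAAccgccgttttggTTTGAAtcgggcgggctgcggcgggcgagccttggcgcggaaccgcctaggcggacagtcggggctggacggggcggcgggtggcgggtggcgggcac
Top2a: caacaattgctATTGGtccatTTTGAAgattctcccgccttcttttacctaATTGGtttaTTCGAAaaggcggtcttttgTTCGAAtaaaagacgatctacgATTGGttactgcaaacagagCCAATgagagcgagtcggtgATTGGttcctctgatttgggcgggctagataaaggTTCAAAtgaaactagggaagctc
Cdk1: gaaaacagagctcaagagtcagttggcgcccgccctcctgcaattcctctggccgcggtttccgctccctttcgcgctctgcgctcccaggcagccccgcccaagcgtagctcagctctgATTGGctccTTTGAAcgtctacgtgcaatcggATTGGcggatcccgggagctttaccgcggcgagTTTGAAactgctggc
Cdc20: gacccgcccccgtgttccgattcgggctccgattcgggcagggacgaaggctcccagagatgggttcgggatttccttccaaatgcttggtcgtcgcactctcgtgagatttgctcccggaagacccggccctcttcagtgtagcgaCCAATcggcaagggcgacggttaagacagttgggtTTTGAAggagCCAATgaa
Cdkn3: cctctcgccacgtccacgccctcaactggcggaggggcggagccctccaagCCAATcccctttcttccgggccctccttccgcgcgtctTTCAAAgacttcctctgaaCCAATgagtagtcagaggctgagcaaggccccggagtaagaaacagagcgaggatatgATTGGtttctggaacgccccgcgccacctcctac
Kif11: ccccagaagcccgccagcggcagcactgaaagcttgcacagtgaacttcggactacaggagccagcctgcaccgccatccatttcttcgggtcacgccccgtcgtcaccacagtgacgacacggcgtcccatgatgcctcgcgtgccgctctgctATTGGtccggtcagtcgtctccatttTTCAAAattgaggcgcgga
Mad2l1: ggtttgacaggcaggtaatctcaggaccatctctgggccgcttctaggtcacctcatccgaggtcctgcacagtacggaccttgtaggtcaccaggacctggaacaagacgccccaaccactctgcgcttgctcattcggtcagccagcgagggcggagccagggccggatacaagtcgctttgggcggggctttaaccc

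Nusap1, Tacc3, Mad2l1 and Birc5 had neither match in their windows, and Kif2c had a CHR without a CCAAT box. Cenpe, Cks2, Nek2 and Ccnb1 had a CCAAT box without a CHR. The genes without either match, Nusap1, Birc5, Tacc3 and Mad2l1, rose by 3.85, 3.74, 3.22 and 2.43 on the log2 scale from 14 days of castration to testosterone. Whether the matches bear on the rise was not tested.

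The median signal of an array lay between 154.2 and 224.4, on a scale that reached 28576. The log2 ratio of the 3′ to the 5′ control probe sets of Gapdh, a sign of RNA quality, lay between 1.82 and 4.54 on 4 arrays and between -0.53 and -0.08 on the other 16. The 4 arrays were replicates 4 and 5 at 14 days of castration and replicates 2 and 5 of the testosterone group, and each main count is also given without them. The same ratio for beta-actin differed less, at 0.727 to 1.11 on these 4 arrays and 0.288 to 0.681 on the other 16. Genes known from neighbouring tissues varied between arrays, and those of the seminal vesicle also between groups. Summed signals of 4 seminal vesicle genes ran from 3169 to 32149 at 14 days of castration and from 41766 to 58538 at 3 days. They ran from 40468 to 61970 over the sham and testosterone arrays. All 4 were called lower at 14 days than in sham mice, without overlap. The sums of 8 skeletal muscle genes ran from 726 to 21958 over all arrays. Luminal epithelial markers were high in every group, whereas Krt5, Krt14 and Krt15 of basal cells stayed below a signal of 191 on every array. Trp63, the other of 4 basal markers, was higher at 14 days of castration than in sham mice (log2 change 0.81), and 1 of the 4 was lower. After testosterone Trp63 was lower than at 14 days of castration (log2 change -0.49).

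Almost every gene of the list was higher after testosterone. This list, like the other gene lists used here, was chosen with earlier results of these data known. Its counts after testosterone are therefore a description of the list and not a test of mitosis genes in general. With all 12422 probe sets tested, 37 of the 38 genes were higher 3 days after the pellet than at 14 days of castration and none was lower, against 10.4% of probe sets higher and 17.5% lower in this comparison (limma, adjusted p under 0.05). The median log2 change of the 38 genes was 2.66, with a range from 0.07 to 5.11, and the median of all probe sets was -0.11. For 35 genes the 5 testosterone arrays all lay above the 5 arrays at 14 days of castration, against 7.87% of all probe sets. The exceptions were Ube2c, Foxm1 and Cenpe. The count was again 37 of 38 when the 4 arrays of high Gapdh ratio were left out. Log2 changes are of the signal plus 12.7, which understates folds where the lower group is dim.

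**Figure D1:**
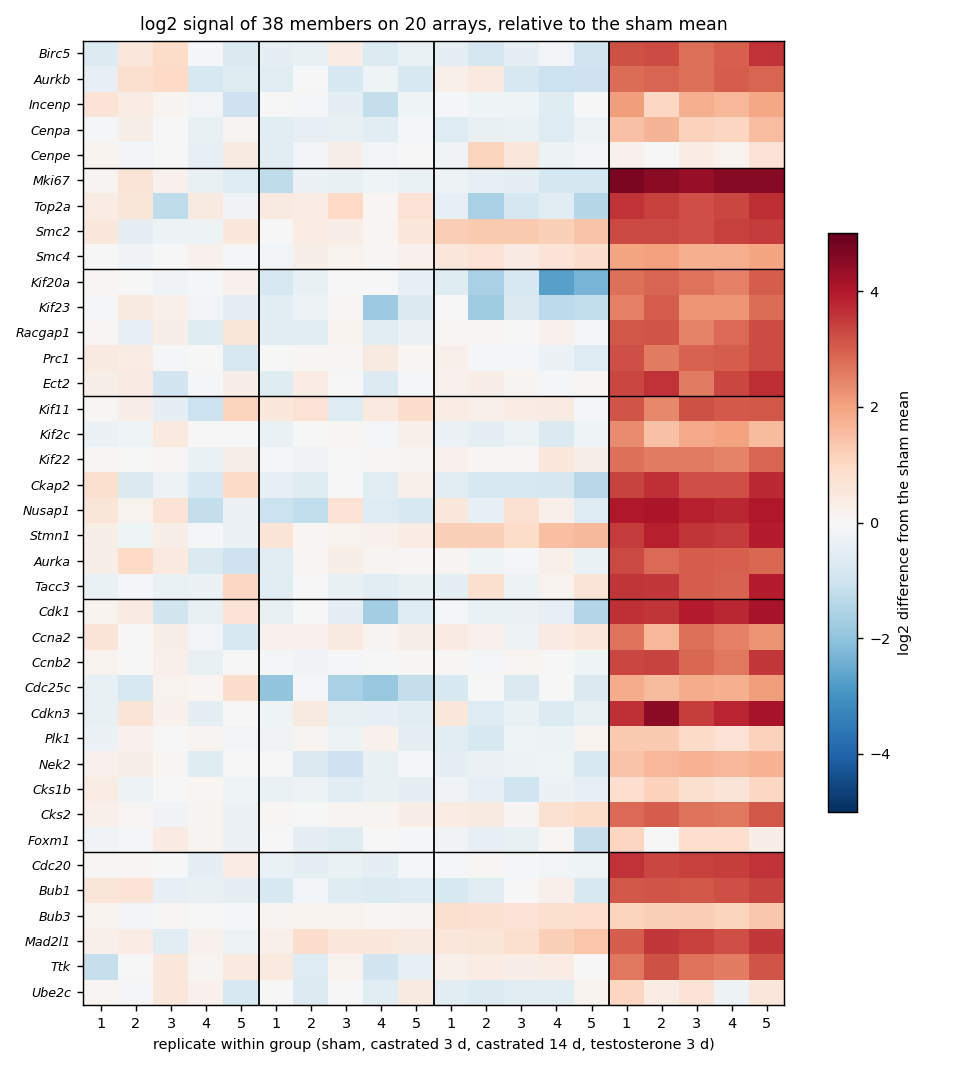
Log2 signal of the 38 genes (rows, grouped by role) on the 20 arrays (columns, 4 groups of 5), each relative to the gene's sham mean (colour scale in log2 units, plotted as log2 of the signal plus 12.7). The 5 testosterone columns stand apart in nearly every row, whereas Cenpe, Ube2c, Foxm1, Cks1b and Plk1 are the palest there (0.29, 0.49, 0.62, 0.90 and 1.10 above sham). Smc2, Stmn1, Bub3 and Mad2l1 are already tinted at 14 days of castration.

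A filter on dim probe sets (a signal above 191 on at least 5 of 20 arrays) left 6911 probe sets and 36 of the 38 genes. Of these 36, 23 passed through the testosterone arrays alone, so they had to differ, and no count over the filtered genes is used as support for the rise. The standard errors and adjusted p-values of the comparisons with testosterone therefore come from the fit without a filter. Those between castration times or against sham come from the filtered fit unless stated otherwise.

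Mki67 encodes the Ki-67 protein of mitotic chromosome surfaces and is the standard proliferation marker. Its signals on the 5 testosterone arrays were 1545, 1352, 1191, 1379 and 1367. At 14 days of castration they were 37.2, 32.2, 29.6, 19.8 and 19.6, at 3 days 12.0, 36.1, 32.6, 38 and 34.9, and in the sham group 52.4, 80.5, 55.7, 33.3 and 25.5. No array outside the testosterone group came near that group's lowest value. The rise from 14 days of castration was 34.6-fold (log2 change 5.11 ± 0.22 SE, adjusted p = 1.11e-11). Because the lower group is so dim, the size of this value depends on the processing, and its log2 change ran from 4.32 to 5.62 over the alternatives tried. A further Mki67 probe set did not follow and read 119 after testosterone and 129 at 14 days of castration (log2 change -0.13, adjusted p = 0.69).

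Top2a, the DNA topoisomerase that untangles sister chromatids, read 756, 656, 586, 632 and 795 after testosterone. The arrays at 14 days of castration read 34.8, 7.9, 22.3, 29.8 and 11.0, those at 3 days 73.7, 69.5, 115, 54.3 and 91.5, and the sham arrays 68.7, 83.8, 13.7, 73.7 and 44.0. The testosterone arrays lay above all others. Top2a rose 21.5-fold from 14 days of castration (log2 change 4.43 ± 0.30 SE, adjusted p = 3.03e-09). Smc2 and Smc4, the ATPase core of condensin, rose 4.13-fold and 2.40-fold in the same comparison, on top of a rise during castration described below.

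Among the mitotic kinases, cyclins and their regulators, 10 of the 10 measured genes were higher after testosterone, with a median log2 change of 2.19. Cdk1, the kinase that drives entry into mitosis, read 1453, 1370, 1763, 1590 and 2029 after testosterone. It read 98.1, 78.9, 82.3, 74.1 and 29.3 at 14 days of castration, 78.1, 104, 73.4, 23.3 and 61.7 at 3 days, and 120, 144, 48.3, 78.1 and 174 in the sham group. The separation was complete, and the rise from 14 days of castration was 20.2-fold (log2 change 4.34 ± 0.32 SE, adjusted p = 1.04e-08).

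Cdkn3, a phosphatase that removes the activating phosphate of Cdk1 and Cdk2, read 354, 646, 309, 404 and 505 after testosterone. Its other arrays were dim: 31.1, 6.2, 11.0, 5.5 and 9.9 at 14 days of castration, 12.5, 27.9, 10.1, 9.6 and 7.7 at 3 days, and 9.8, 34.0, 21.3, 8.1 and 17.3 in the sham group. Cdkn3 thus rose together with the kinase that it restrains, by 18.4-fold (log2 change 4.20 ± 0.27 SE, adjusted p = 1.72e-09).

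The cyclins of this list rose by smaller folds than Cdk1. Ccnb2, a B-type cyclin of Cdk1, went from a mean of 334 to 3206 (9.08-fold), and Ccna2, the cyclin of S phase and G2, from 253 to 1162 (4.33-fold). The small Cdk-binding proteins Cks2 and Cks1b rose 5.05-fold and 2.56-fold. Nek2, a centrosomal kinase, rose 4.11-fold, and Cdc25c, a phosphatase that activates Cdk1, rose 4.82-fold.

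Plk1, the polo kinase of spindle assembly and cytokinesis, was read by 3 probe sets that differed in size of change but not in direction. The brightest went from 282 to 768 (log2 change 1.43 ± 0.18 SE, adjusted p = 5.3e-06). The others went from 205 to 926 (log2 change 2.05) and from 17.8 to 483 (log2 change 4.10). The smallest change of this role was that of Foxm1, the transcription factor known to activate many G2 and M phase genes. Its testosterone arrays read 915, 437, 790, 788 and 543 and overlapped those at 14 days of castration, which read 376, 323, 331, 445 and 187. The overlap was between testosterone replicate 2 (437) and replicate 4 at 14 days (445), both arrays of high Gapdh ratio. A further Foxm1 probe set, below 191 on every array, went from a mean of 13.9 to 81.6. Its testosterone arrays read 65.2, 14.6, 118, 186 and 24, replicates 2 and 5 being the lowest. For the main probe set the rise was 2.05-fold (log2 change 1.04 ± 0.23 SE, adjusted p = 0.00162). The log2 change was 1.24 without the 4 arrays of high Gapdh ratio.

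Of the spindle checkpoint and anaphase-promoting complex genes, 6 of 6 measured were higher, with a median log2 change of 2.51 and a range from 0.42 to 3.60. Cdc20, which activates the anaphase-promoting complex, read 3107, 2560, 2700, 2766 and 3111 after testosterone. It read 222, 247, 224, 220 and 205 at 14 days of castration, 189, 169, 189, 174 and 233 at 3 days, and 249, 248, 244, 165 and 318 in the sham group. Cdc20 was nearly flat over the 3 groups without testosterone and then rose 12.1-fold (log2 change 3.60 ± 0.13 SE, adjusted p = 9.15e-13).

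Bub1, a checkpoint kinase at kinetochores, read 243, 246, 242, 261 and 294 after testosterone. The arrays at 14 days of castration read 4.3, 7.3, 16.9, 22.2 and 4.5, those at 3 days 4.5, 13.7, 6.4, 5.4 and 6.1, and the sham arrays 31.6, 34.5, 9.1, 10.2 and 8.2. The rise from 14 days of castration was 11.9-fold (log2 change 3.57 ± 0.24 SE, adjusted p = 3.03e-09). Ttk, the checkpoint kinase also called Mps1, rose 5.99-fold and Mad2l1, which holds Cdc20 inactive, 5.38-fold.

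Bub3 and Ube2c had the smallest changes of this role. Bub3, a checkpoint protein that anchors Bub1 at kinetochores, read 2086, 2237, 2286, 2103 and 2501 after testosterone and 1684, 1669, 1564, 1701 and 1756 at 14 days of castration. These groups did not overlap, although the rise was 1.33-fold (log2 change 0.42 ± 0.08 SE, adjusted p = 0.000704). Ube2c, the ubiquitin-conjugating enzyme of the anaphase-promoting complex, read 404, 249, 308, 156 and 283 after testosterone and 126, 112, 125, 121 and 213 at 14 days of castration. The groups overlapped, with a rise of 1.89-fold (log2 change 0.92 ± 0.27 SE, adjusted p = 0.0152).

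At centromeres, 4 of 5 measured genes were higher. Birc5 (survivin), Aurkb and Incenp form the chromosomal passenger complex, which corrects faulty spindle attachments. Birc5 read 679, 726, 503, 605 and 917 after testosterone. It read 43.8, 30.6, 41.6, 57.8 and 25.9 at 14 days of castration, 42.0, 47.3, 87.8, 35.1 and 48.6 at 3 days, and 34.9, 101, 131, 61.0 and 34.4 in the sham group. The testosterone arrays again lay above all others, 13.3-fold over 14 days of castration (log2 change 3.74 ± 0.29 SE, adjusted p = 1.47e-08).

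Aurkb, the kinase of the complex, read 570, 610, 549, 663 and 624 after testosterone. It read 87.0, 104, 35.4, 26.9 and 27.9 at 14 days of castration, 44.3, 72.9, 36.3, 58.8 and 36.5 at 3 days, and 50.3, 135, 156, 34.8 and 42.9 in the sham group. The low groups scattered widely but none reached the testosterone arrays. Aurkb rose 9.95-fold (log2 change 3.31 ± 0.35 SE, adjusted p = 8.44e-07), Incenp 3.78-fold, and Cenpa, the histone variant that marks centromeres, 3.53-fold.

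Cenpe, the kinesin of kinetochores, was the only gene of the 38 not called in this comparison. Its main probe set read 18.9, 13.5, 21.8, 17.4 and 31.5 after testosterone and 11.2, 45.1, 26.7, 10.0 and 11.5 at 14 days of castration (log2 change 0.07 ± 0.24 SE, adjusted p = 0.88). A further probe set read 12.7 and 14.9 (log2 change -0.19, adjusted p = 0.785). Both probe sets stayed below a signal of 191 on every array.

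All 8 measured genes of kinesins, spindle and microtubule proteins were higher, with a median log2 change of 2.89. Ckap2, a spindle microtubule protein, read 644, 777, 573, 571 and 818 after testosterone. It read 29.1, 23.4, 23.6, 21.9 and 11.3 at 14 days of castration, 34.3, 28.5, 48.3, 31.3 and 61.3 at 3 days, and 97.7, 25, 39.3, 24.1 and 108 in the sham group. The rise from 14 days of castration was 20-fold (log2 change 4.32 ± 0.29 SE, adjusted p = 3.03e-09).

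Nusap1, which bundles spindle microtubules near chromosomes, read 931, 963, 854, 772 and 922 after testosterone. It read 72.0, 30.8, 86.9, 56.2 and 24.3 at 14 days of castration, 15.2, 12.3, 82.9, 24.8 and 20.5 at 3 days, and 76.0, 53.2, 81.9, 13.1 and 34.2 in the sham group. The 3 low groups overlapped each other, and the testosterone arrays lay 14.4-fold above 14 days of castration (log2 change 3.85 ± 0.37 SE, adjusted p = 2.7e-07).

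The other genes of this role rose between 4.78-fold and 9.29-fold. Tacc3, a spindle protein bound by Aurka, went from a mean of 14.6 to 235 (log2 change 3.22, adjusted p = 7.37e-08), and Aurka, the kinase of centrosomes and spindle poles, from 43.8 to 450 (8.23-fold). The motor Kif11, which pushes the spindle poles apart, rose 6.63-fold, Kif22, a chromosome-arm kinesin, 5.38-fold, and Kif2c, which takes microtubule ends apart, 4.78-fold. Stmn1 (stathmin), which destabilises microtubules, rose 5.23-fold.

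The 5 cytokinesis genes were all higher, with the narrowest range of any role, from 2.92 to 4.38 on the log2 scale. Kif20a, a kinesin of the central spindle, read 1311, 1452, 1264, 1112 and 1574 after testosterone. It read 118, 51.8, 102, 17.2 and 26.3 at 14 days of castration, 101, 140, 181, 185 and 133 at 3 days, and 196, 185, 159, 170 and 212 in the sham group. The rise from 14 days of castration was 20.8-fold (log2 change 4.38 ± 0.30 SE, adjusted p = 4.05e-09). Its log2 change was 3.65 without the 4 arrays of high Gapdh ratio, which include replicates 4 and 5 at 14 days of castration, its lowest values. A further Kif20a probe set went from 12.6 to 297 (log2 change 3.68, adjusted p = 3.07e-10).

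Kif23, the motor of the centralspindlin complex, read 612, 858, 486, 483 and 739 after testosterone. It read 98.3, 18.4, 52.7, 30.9 and 33.2 at 14 days of castration, 59.8, 77.3, 99.1, 18.2 and 52.9 at 3 days, and 87.7, 135, 115, 85.4 and 66.6 in the sham group. It rose 11.7-fold from 14 days of castration (log2 change 3.55 ± 0.33 SE, adjusted p = 1.63e-07). Racgap1, its partner in centralspindlin, rose 7.57-fold, Ect2, the exchange factor that activates RhoA at the division plane, 9.0-fold, and Prc1, which bundles the central spindle, 9.07-fold.

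**Figure D2:**
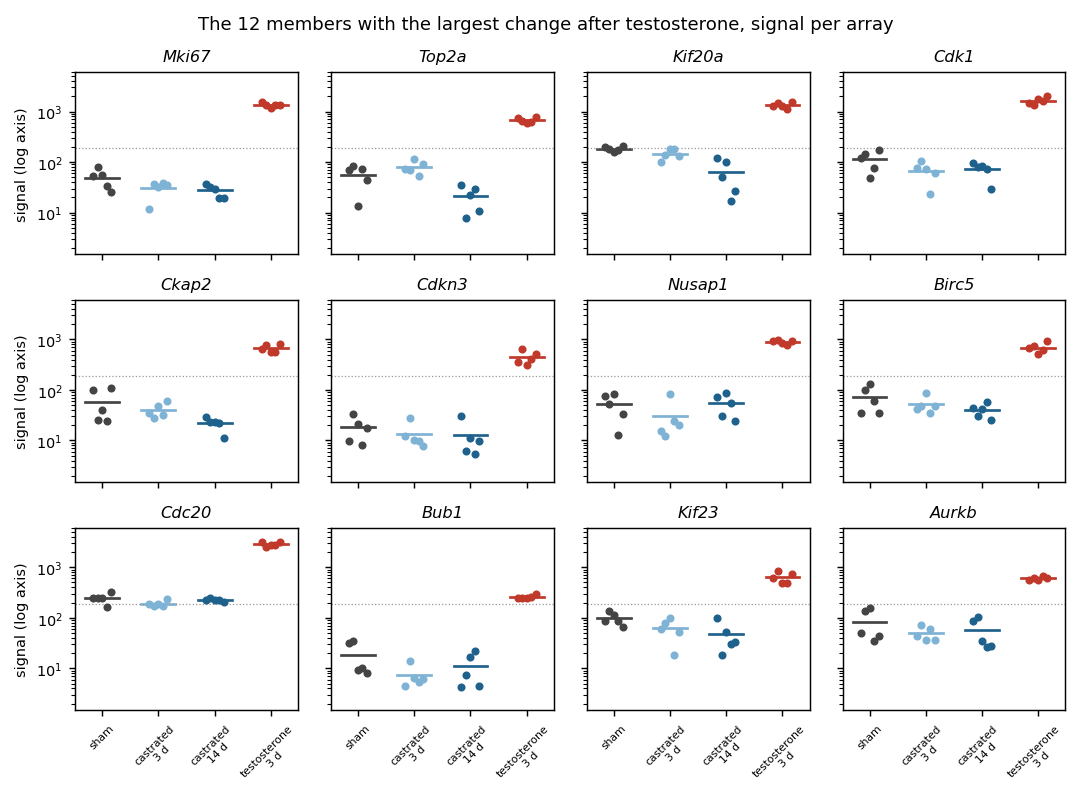
Signal per array (log axis) of the 12 genes with the largest log2 change from 14 days of castration to testosterone, in 4 groups of 5 arrays. Points are arrays, horizontal lines are group means and the dotted line is the signal of 191 used in the filter. In each of the 12 panels the 5 testosterone arrays lie above the 15 others, for example Mki67 at 1191 to 1545 against at most 80.5.

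Of the 13 further probe sets of these genes, 7 were called higher after testosterone and none lower. The 6 not called belonged to Mki67, Incenp, Bub3, Bub1, Stmn1 and Cenpe, with mean signals of 11.6 to 144 after testosterone. For each of these genes except Cenpe the main probe set was called.

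The genes were also higher after testosterone than in the intact gland. Tested without a filter, 36 of 38 were higher than in sham mice and none lower, against 14.2% of probe sets higher and 26.7% lower. The median log2 change of the 38 genes was 2.92, against -0.24 over all probe sets, and for 35 the groups did not overlap (9.48% of probe sets). This comparison shares its testosterone arrays with the comparison above. Mki67 lay 23.2-fold above sham (log2 change 4.54 ± 0.22 SE, adjusted p = 5.52e-11), Nusap1 15.4-fold, Cdkn3 15.0-fold, Cdk1 14.1-fold and Cdc20 11.3-fold. Stmn1, Smc2 and Mad2l1 stood further above sham (12.7-fold, 10.1-fold and 10.1-fold) than above 14 days of castration. Further probe sets of Mki67 and Stmn1 went the other way and were called lower than in sham mice (log2 change -0.65, adjusted p = 0.0107, and log2 change -1.29, adjusted p = 0.00689), at mean signals of 119 and 11.6 after testosterone against 195 and 50.4.

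By main probe set, the smallest called changes against sham were those of Foxm1 (log2 change 0.62 ± 0.23 SE, adjusted p = 0.0345), Cks1b (1.87-fold) and Plk1 (2.14-fold). The further Plk1 probe sets rose more, from sham means of 215 to 926 and of 50 to 483. With the median of its probe sets the log2 change of Plk1 was 1.67. Ube2c did not pass (log2 change 0.49 ± 0.27 SE, adjusted p = 0.157), nor did Cenpe (log2 change 0.29, adjusted p = 0.344). In the filtered fit the call for Foxm1 (adjusted p = 0.0238) was lost without sham replicate 1 or 5 or testosterone replicate 1, 3 or 4, with log2 changes of 0.51 to 0.57 and adjusted p-values up to 0.0657. Without the 4 arrays of high Gapdh ratio, 36 of 38 genes were again higher.

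Against 14 days of castration, markers of immune cells and of some other cell types moved the other way. Summed signals of 10 macrophage and myeloid genes ran from 9098 to 16556 at 14 days of castration and from 4018 to 5980 after testosterone, with Fcgr3 and Itgam below 191 on every array. Those of 11 lymphocyte genes ran from 1959 to 6148 and from 897 to 1569, with 7 of the 11 below 191 on every array, among them Cd3d, Cd3e and Cd3g. After testosterone 8 of the 10 and 6 of the 11 were lower than at 14 days of castration and none was higher in the fit without a filter. Against sham, 8 of the 10 macrophage and myeloid genes were higher after testosterone and none lower, with sham sums of 1980 to 2511. Of 8 luminal markers, 2 were higher and 4 lower than at 14 days, and their sums overlapped (32307 to 49863 at 14 days, 35437 to 40814 after testosterone). Of 6 smooth muscle markers, 4 were higher and none lower. Among 6 endothelial markers 4 were lower and none higher, and among 10 nerve genes 5 were lower and none higher. The 7 fibroblast markers split into 3 higher and 3 lower, with the remaining gene not called. Which cells of the gland held the mitotic RNA was not tested.

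Castration by itself moved 1 of these genes past the threshold at 3 days and 13 at 14 days, the latter in both directions. The gene called at 3 days was lower than in sham mice and none was higher, against 4.78% of probe sets higher and 3.79% lower without a filter. The median log2 change was -0.23, against -0.06 for all probe sets. At an unadjusted p under 0.05, 7 genes were lower and 1 higher. The share of all probe sets at that threshold was not computed, so this count is not read as a fall of the list. With the filter, the count of 1 became 3 (1 higher, 2 lower) without the 4 arrays of high Gapdh ratio and 4 (all lower) without sham replicate 4. The gene was Cdc25c, which read 16.8, 96.5, 24.1, 18.3 and 37.7 at 3 days and 76.0, 52.9, 118, 109 and 199 in the sham group. The groups overlapped (log2 change -1.34 ± 0.32 SE, adjusted p = 0.008). Its further probe set read 31.2 and 29.5 (log2 change 0.05, adjusted p = 0.94), and with the median of both probe sets the log2 change was -0.65 (adjusted p = 0.0407). A further, dim probe set of Nusap1 was also called lower without a filter (21.2 against 50.6 in the sham group, adjusted p = 0.0295).

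At 14 days of castration 6 genes were higher and 7 lower than in sham mice, of 36 with the filter and of 38 without, against 18.7% of probe sets higher and 21.7% lower without a filter. These shares lie near the background, so the count itself does not set the list apart from other genes. For 5 of the 38 genes the arrays at 14 days all lay above the sham arrays, and for 1 of the 38 all below, against 12.8% and 12.1% of probe sets. The first share lies near the background and the second below it. The 5 genes were among those called higher, and the 1 among those called lower. The genes called higher were the condensin subunits Smc2 and Smc4, the checkpoint genes Bub3 and Mad2l1, Stmn1 and Cks2. The genes called lower were Kif20a, Kif23, Top2a, Ckap2, Mki67, Cenpa and Cks1b.

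Smc2 showed the largest rise. It read 163, 171, 172, 158 and 186 at 14 days, 63.4, 84.2, 81.1, 67.1 and 95.2 at 3 days, and 93.9, 40.0, 48.8, 49.0 and 93.7 in the sham group. The arrays at 14 days lay above all sham arrays and all arrays at 3 days, 2.45-fold over sham (log2 change 1.29 ± 0.17 SE, adjusted p = 2.79e-06). The 5 arrays after testosterone read 716, 711, 683, 778 and 821. Smc4 read 753, 839, 679, 816 and 947 at 14 days and 513, 441, 495, 592 and 484 in the sham group, a rise of 1.58-fold without overlap (log2 change 0.66 ± 0.10 SE, adjusted p = 3.27e-05).

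Bub3 read 1097, 884, 1007, 947 and 911 in the sham group, all below its values at 14 days given above. The rise was 1.72-fold (log2 change 0.78 ± 0.07 SE, adjusted p = 6.73e-08), beside 0.42 for the step from 14 days to testosterone. A further, dim Bub3 probe set went the other way, from 62.2 in the sham group to 11.4 at 14 days, and was called lower without a filter (log2 change -1.48, adjusted p = 0.00195). Mad2l1 read 214, 225, 256, 344 and 397 at 14 days and 174, 186, 92.4, 166 and 116 in the sham group, 1.88-fold apart without overlap (log2 change 0.91 ± 0.19 SE, adjusted p = 0.000523). Its highest values at 14 days were on replicates 4 and 5, the arrays of high Gapdh ratio. Without the 4 arrays of high Gapdh ratio its log2 change was 0.65 (adjusted p = 0.0101). Cks2 read 360, 388, 308, 487 and 534 at 14 days and 335, 290, 248, 310 and 225 in the sham group, which overlapped (log2 change 0.53 ± 0.14 SE, adjusted p = 0.00415).

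Stmn1 is also abundant in neurons, so nerve genes are given beside it. Stmn1 read 1054, 1053, 868, 1324 and 1406 at 14 days and 567, 394, 561, 418 and 369 in the sham group (log2 change 1.28 ± 0.15 SE, adjusted p = 1.33e-06). The groups did not overlap. A further, dim Stmn1 probe set was called lower without a filter, from 50.4 in the sham group to 15.4 (log2 change -1.15, adjusted p = 0.0134). Of 10 nerve genes, 6 were higher at 14 days and none lower, and their summed signals ran from 3255 to 4007 against 1537 to 2262 in the sham group, with Syp, Nefl, Nefm, Syt1 and S100b below 191 on every array. After testosterone those sums were 2193 to 3189, whereas Stmn1 read 5192, 6863, 5591, 5222 and 7042. Macrophage and myeloid markers moved too, with sums of 9098 to 16556 at 14 days against 1980 to 2511 in the sham group. Of 6 endothelial markers 4 were higher and none lower (sums of 1670 to 2105 against 560 to 964), and of 7 fibroblast markers 5 were higher and none lower (19041 to 26742 against 13274 to 14513). Of 11 lymphocyte genes 3 were higher and 1 lower, with sums of 1959 to 6148 against 896 to 1299. Smooth muscle markers went down, with 3 of 6 lower and none higher without a filter (15570 to 19890 against 23336 to 25722). Of 8 luminal markers 3 were higher and 2 lower. The part of these cell types in the rises at 14 days was not tested.

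**Figure D3:**
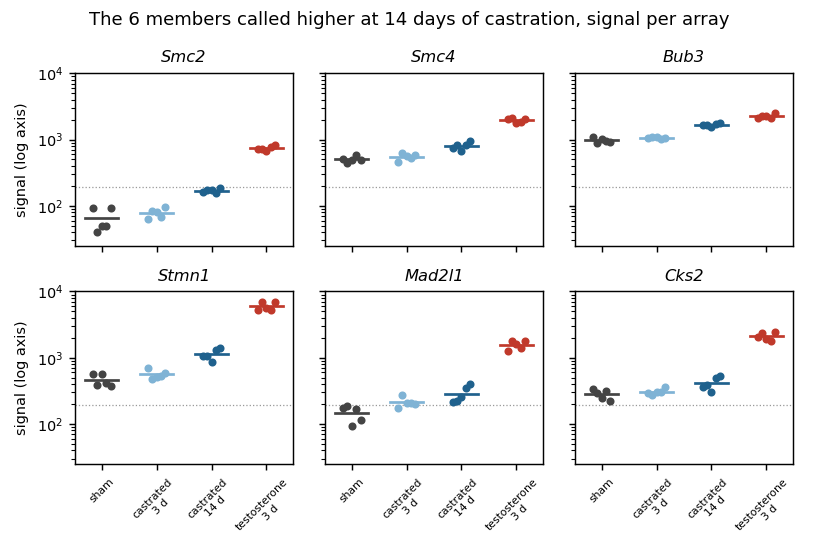
Signal per array (log axis) of the 6 genes called higher at 14 days of castration than in the sham group, with points for arrays, lines for group means and a dotted line at a signal of 191. Only Cks2 overlaps the sham arrays at 14 days. Each gene is higher again after testosterone, by the narrowest margin for Bub3 (2086 to 2501 against 1564 to 1756).

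Of the genes called lower at 14 days, Kif20a alone had groups without overlap, its sham arrays reading 159 to 212 and those at 14 days 17.2 to 118 (log2 change -1.60 ± 0.30 SE, adjusted p = 0.000177). The fall was smaller without the 4 arrays of high Gapdh ratio (log2 change -0.99, adjusted p = 0.00104) and with the median of both probe sets (log2 change -0.77). The further Kif20a probe set did not fall (log2 change 0.06, adjusted p = 0.822). Kif23 changed by -1.0 ± 0.32 (adjusted p = 0.0139), Top2a by -0.98 ± 0.30 (adjusted p = 0.00928), Ckap2 by -0.88 ± 0.29 (adjusted p = 0.0149) and Mki67 by -0.57 ± 0.22 (adjusted p = 0.0336) on the log2 scale. These 4 genes had mean signals of 49.5 to 97.9 in the sham group, below the 191 of the filter.

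Cks1b went from a mean of 1271 ± 235 in the sham group to 928 ± 180 (SD, n = 5), a log2 change of -0.45 ± 0.14 (adjusted p = 0.0117). Cenpa changed by the same amount (adjusted p = 0.0126). Without the 4 arrays of high Gapdh ratio, 6 genes were called higher and 5 lower with the filter, and 5 higher and 4 lower without one. The calls for Mki67, Kif23 and Ckap2 were then lost with the filter, at log2 changes of -0.38, -0.83 and -0.72 and adjusted p-values of 0.244, 0.088 and 0.093. That of Mki67 was also lost without sham replicate 1, 2 or 3, or replicate 4 or 5 at 14 days (adjusted p up to 0.11), and that of Ckap2 without sham replicate 1 or 5 (adjusted p up to 0.0525).

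Between 3 and 14 days of castration 6 genes were called higher and 2 lower with the filter, against 20.2% and 20.4% of probe sets, and 4 higher and 2 lower without it, against 12.8% and 11.8%. Smc2, Stmn1, Bub3 and Smc4 were higher in both fits, by 1.02, 0.99, 0.64 and 0.54 on the log2 scale. These comparisons share the arrays at 14 days with the one against sham. Top2a fell by 1.5 on the log2 scale (SE 0.30, adjusted p = 0.000577), with no overlap between its arrays at 3 and 14 days given above, and Kif20a fell by 1.29 (SE 0.30, adjusted p = 0.0023). The log2 change of Kif20a was -0.67 without the 4 arrays of high Gapdh ratio and -0.54 with the median of its probe sets, and its further probe set was not called (0.21). Cdc25c and Cks2 were called with the filter but not without it (adjusted p = 0.0514 and 0.0596). Leaving out the 4 arrays of high Gapdh ratio gave 4 higher and 2 lower with the filter.

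**Figure D4:**
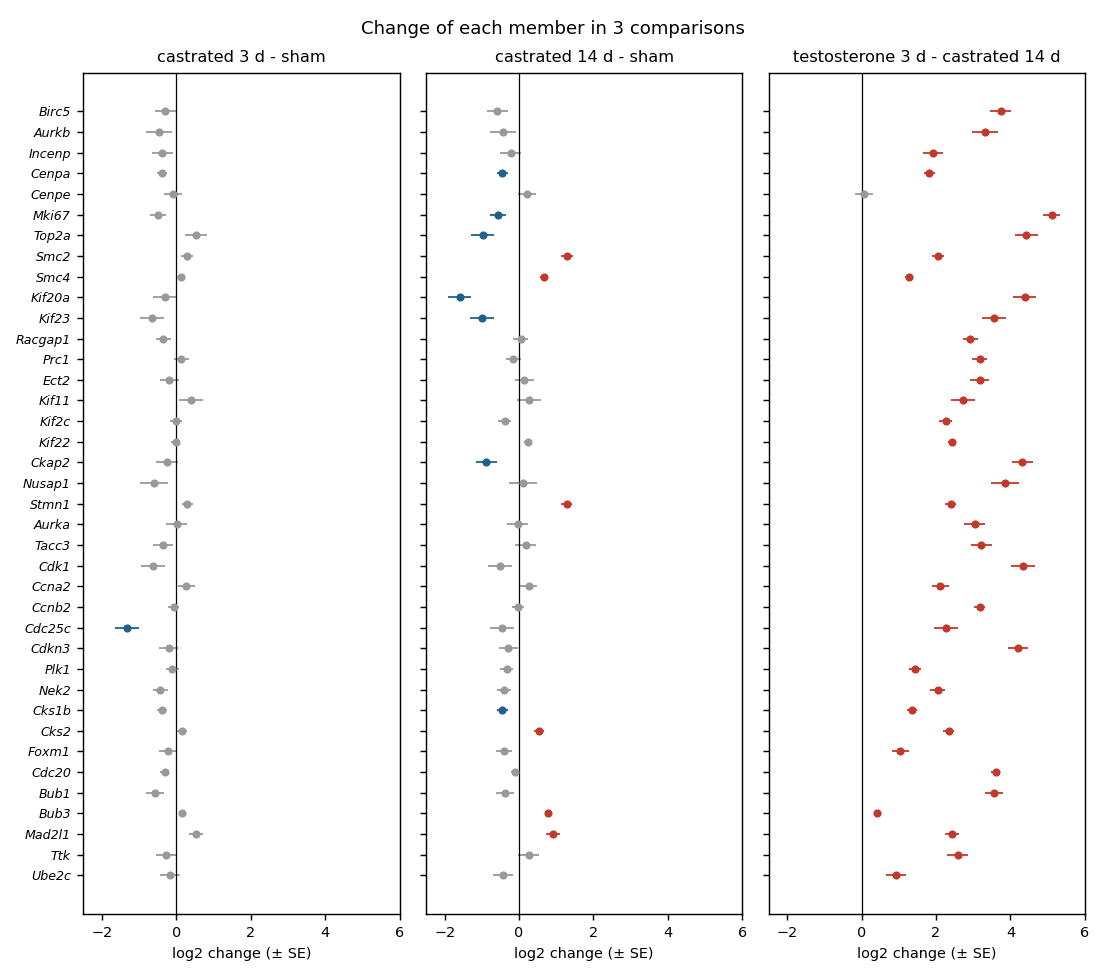
Log2 change (± SE of the linear model, with the filter for the 36 genes that passed it and without it for Cenpe and Tacc3) of the 38 genes in 3 comparisons, grouped by role. Coloured points passed an adjusted p of 0.05 (red higher, blue lower) and grey points did not. Changes with castration lie on both sides of 0, from -1.60 to 1.29 at 14 days, whereas those with testosterone are all above 0, from 0.07 for Cenpe to 5.11 for Mki67.

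Within the testosterone group the genes did not vary as 1 block. Replicates 2 and 5, the arrays of high Gapdh ratio in this group, both lay above the other 3 for 15 of the 36 genes (41.7%) that passed the filter. Both lay below for 4 (11.1%). Of the 6911 probe sets that passed the filter, the shares were 24.2% and 25.5%. Because 23 of the 36 genes passed through these arrays alone, the shares are given as a description only. Of the 15, Cdkn3, Kif23 and Ect2 differed by 0.67, 0.59 and 0.55 in mean log2 signal. The 4 genes below were Foxm1, Ccna2, Kif2c and Aurka, with a mean difference of -0.75 for Foxm1 and -0.72 for Ccna2. Ccna2 read 674 and 1013 on replicates 2 and 5 and 1431, 1444 and 1247 on replicates 1, 3 and 4. Mki67 and Cdc20 differed by under 0.05 in either direction. When the 4 arrays of high Gapdh ratio were left out, Ccna2 rose by 2.54 on the log2 scale from 14 days of castration in place of 2.11, and Foxm1 by 1.24 in place of 1.04.

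**Figure D5:**
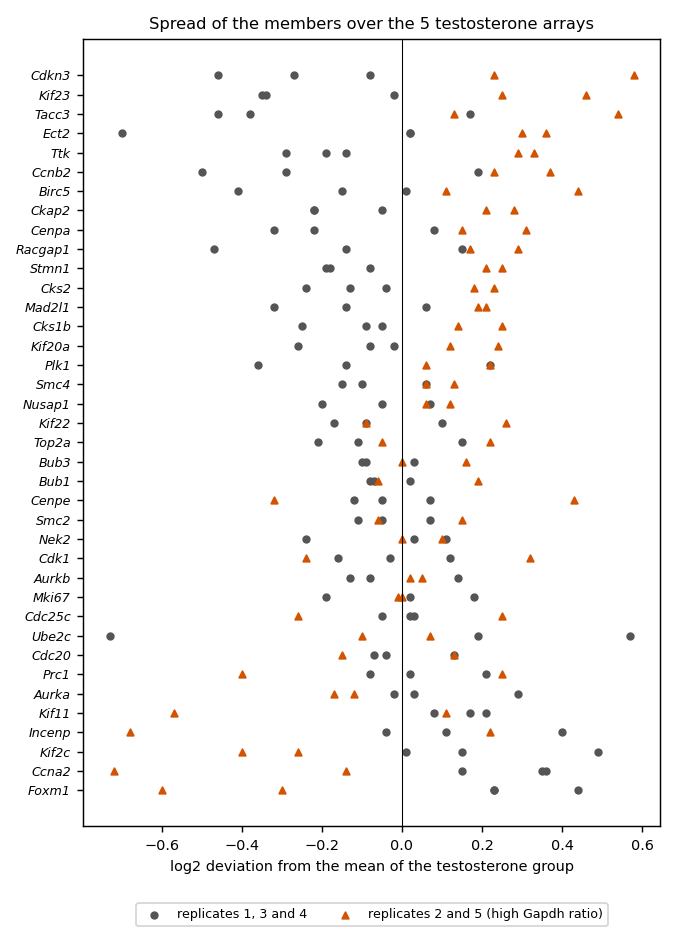
Log2 deviation of each testosterone array from the group's mean for the 38 genes, ordered by the difference between replicates 2 and 5 (triangles, the arrays of high Gapdh ratio) and replicates 1, 3 and 4 (circles). Triangles lie to the right of circles for genes at the top such as Cdkn3 and Kif23 and to the left for Foxm1 and Ccna2 at the bottom. All deviations are smaller than the median rise of 2.66 from 14 days of castration.

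Other genes of mitosis, from a list of 126 of which 63 had a probe set, moved less uniformly. Both lists were chosen with earlier results of these data known, so the difference between them is given as a description only. Without a filter 29 of the 63 were higher after testosterone than at 14 days of castration and 5 lower, beside the 10.4% and 17.5% of all probe sets, with a median log2 change of 0.31. By role, 9 of 14 further kinesins, spindle and centrosome genes and 11 of 18 entry kinases, phosphatases and cytokinesis genes were higher, against 2 of 11 kinetochore and checkpoint genes, 4 of 10 subunits of the anaphase-promoting complex, and 3 of 10 genes of cohesin, condensin and separase. Dlgap5, a spindle assembly protein, went from 14.7 ± 8.51 to 232 ± 52.4 (SD, n = 5, log2 change 3.18), and Anln, the cytokinetic ring protein anillin, from 124 ± 20.9 to 1167 ± 162 (log2 change 3.11). Kif4, a chromosome-bound kinesin, rose by 2.51 and Cdca5 (sororin), which protects cohesion, by 2.36 on the log2 scale.

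In the same list 9 genes were higher and 14 lower at 14 days of castration than in the sham group, beside 18.7% and 21.7% of all probe sets. Plk3, a polo-like kinase known for stress responses, fell from 13651 ± 1920 to 3096 ± 324 (SD, n = 5, log2 change -2.13 ± 0.11 SE, adjusted p = 1.3e-10 without a filter). Tubg1, the gamma-tubulin of centrosomes, rose by 0.99 on the log2 scale, while Dlgap5 and Cdca5 changed by -0.97 and -0.95. Tubg1 was higher again after testosterone (log2 change 0.73), as the 6 genes of the main list that had risen with castration were.

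S phase genes were also higher after testosterone. Of 31 with a probe set, 28 were higher than at 14 days of castration and none lower (10.4% and 17.5% of all probe sets), with a median log2 change of 1.36. Rrm2 and Rrm1, the subunits of ribonucleotide reductase, rose by 3.51 and 2.44 on the log2 scale, Tk1 (thymidine kinase) by 3.06, and Uhrf1, which maintains DNA methylation at replication forks, by 2.99. At 14 days of castration 13 were higher than in the sham group and 3 lower, beside 18.7% and 21.7% of all probe sets.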

How the data were processed

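Signals of 20 arrays, 5 mice in each of 4 groups, were analysed. The deposited files hold linear intensities, a signal for each probe set that the submitters' processing notes credit to MAS5 version 5.0. Trimmed by 2% at both ends, array means lay between 500.21 and 500.32, so the arrays had been scaled. Software for scanning was not given in the sources used here. Control probe sets (66 of 12488) were left out. Of the rest, 10833 had 1 gene symbol, 396 several and 1193 none. Over all 12488 probe sets, controls included, 10839 were checked by Entrez ID against RefSeq (GRCm38.p6) and kept their symbols.

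Values were taken as log2 of the deposited signal plus 12.7, the 10th percentile, and fitted over 4 groups and 5 comparisons with limma 3.58.1 in R 4.3.3 (lmFit, contrasts.fit and eBayes), two-sided, with Benjamini-Hochberg adjustment over 6911 probe sets with a signal over 191 (the median value) on at least 5 arrays, or over all 12422, as for the testosterone comparisons. The threshold was an adjusted p of 0.05. The model was checked on simulated data. The labels name no batch.

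The members and lists were chosen with earlier results of these data known. Full values were given by rule for the 12 members with the largest change after testosterone, and for up to 4 genes of each other list. Foxm1, Plk1, Ube2c, Bub3, Cenpe, Smc2, Smc4, Mad2l1, Cks2, Stmn1, Ccna2, Cdc25c, Cks1b and the nerve list were added after their values were seen. Alternatives were other pseudocounts, filters and scalings, array weights, the 2 groups alone, the median of a gene's probe sets, and leaving out arrays. Precision is limited by 5 arrays per group.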

Additional observations from a re-analysis of the deposited data

Results flagged for a closer look

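Of 152 sets of 5 arrays (38 genes in 4 groups), 9 held an array far from the other 4, its gap to the nearest being more than 0.71 of the group's range, and chance gives about 1 in 20. At 3 days of castration, replicate 1 read 12 for Mki67 (others 32.6 to 38) and 27.4 for Aurka (others 47.7 to 58.1), and replicate 2 read 13.7 for Bub1 (others 4.5 to 6.4). In the same group replicate 3 read 17.4 for Kif11 (others 52.4 to 73.4) and replicate 4 read 134 for Prc1 (others 94.5 to 103). At 14 days of castration, replicate 5, an array of high Gapdh ratio, read 29.3 for Cdk1 (others 74.1 to 98.1) and 213 for Ube2c (others 112 to 126). Replicate 2 of the testosterone group, also of high Gapdh ratio, read 237 for Kif11 (others 379 to 416). Sham replicate 5 read 33.6 for Tacc3 (others 5.2 to 8.6).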

How the results depend on the processing

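Without a filter, 37 of 38 genes were higher after testosterone than at 14 days of castration and 36 of 38 higher than in sham mice, and both counts were the same when the 4 arrays were left out for their Gapdh ratio. With the filter, which 23 of 36 genes passed only through the testosterone arrays and which therefore is no support, no call against 14 days was lost, and Foxm1 against sham was lost in 5 of 31 settings. The counts that follow are of the filtered fit. Of 13 calls at 14 days against sham, 8 were kept throughout, Mki67, Ckap2, Kif23, Top2a and Cks2 being lost in 10, 5, 3, 1 and 1 of 31 settings. Of 8 between 14 and 3 days, 6 were kept, Cdc25c being lost in 11 of 30 and Cks2 in 11 of 31. No call changed direction, also with arrays centred on their median or quantile normalized. The count at 3 days against sham, 1 as reported, moved most: it was 0 with a filter on the mean signal (28 genes tested, 1 higher and 5 lower at an unadjusted p under 0.05), 3 with quantile normalization, 5 with array weights, 3 without the 4 arrays of high Gapdh ratio, and 1 to 4 with each array left out in turn, the 4 being without sham replicate 4 and counts of 2 without sham replicate 5, replicate 5 at 3 days or replicate 3 at 14 days. The cause was not tested. The setting without a filter and without the 4 arrays was chosen after seeing the data. No paired analysis was possible because the labels give no replicate numbers shared between groups. Dim signals limit the precision of the largest folds.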
